A study of Mus musculus with 3 samples.

Results

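Glucose, lactate and amino acid transporters are membrane proteins that carry nutrients into T cells and, for lactate, out of them. Of the 31053 genes in the feature tables, 10 were chosen by name as a fixed list of such carriers: *Slc2a1* and *Slc2a3* for glucose, *Slc16a1* and *Slc16a3* for lactate, and *Slc7a5*, *Slc3a2*, *Slc7a1*, *Slc1a5*, *Slc38a1* and *Slc38a2* for amino acids. All 10 were found in all 3 libraries.

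The data were single-cell RNA counts from CD4+ T cells of C57BL/6 mouse spleen, enriched for naïve cells and sorted as live cells (7-AAD negative) positive for CD3 and CD4. The unstimulated WT library held *Ift20* f/f cells in buffer (DPBS, 0 h). The stimulated WT library held *Ift20* f/f cells kept for 24 h with antibodies to CD3 and to CD28 (each at 1 μg/mL), which engage the T cell receptor complex and a costimulatory receptor. The stimulated IFT20-KO library held *Ift20* f/f CD4 cre cells given the same antibodies for the same time. IFT20 is an intraflagellar transport protein that helps build cilia and, in T cells, which have none, takes part in vesicle traffic. Both genotypes carried the floxed *Ift20* allele, and the WT cells lacked the Cre, so an effect of Cre itself and of *Ift20* loss cannot be told apart. CD4 cre is driven by *Cd4* regulatory sequence, which is active in T cells from the thymus onward. The mice were males aged 5 to 10 weeks, their number per library is not given in the sources used here, and no unstimulated IFT20-KO library was analysed here.

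A resting T cell takes up little nutrient. After its receptor is engaged it enlarges, makes protein and runs glycolysis, which needs glucose import and lactate export, and it takes up amino acids for protein and nucleotide synthesis. GLUT1 (*Slc2a1*) and GLUT3 (*Slc2a3*) are glucose carriers, and MCT1 (*Slc16a1*) and MCT4 (*Slc16a3*) move lactate with a proton. LAT1 (*Slc7a5*) is the large neutral amino acid exchanger that needs the heavy chain CD98 (*Slc3a2*) to reach the surface. CAT1 (*Slc7a1*) carries arginine and lysine, ASCT2 (*Slc1a5*) exchanges glutamine and other neutral amino acids, and SNAT1 (*Slc38a1*) and SNAT2 (*Slc38a2*) import small neutral amino acids with sodium.

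Each library was 1 sample, so there was no replicate and nothing was tested. Barcodes with more than 200 genes and mitochondrial counts under 15% were kept, which left 8031 unstimulated WT, 9903 stimulated WT and 13920 IFT20-KO cells, with medians of 4627, 12167 and 5014.5 unique molecular identifiers (UMIs, each 1 captured RNA molecule) per cell. Levels are UMIs per 1000000 UMIs of a library (CPM), counted at 1 end of a transcript and not divided by its length, so that a comparison between genes is of captured molecules. Intervals in parentheses are 95% intervals that cover counting error only. The libraries differed in their share of cells under 4000 UMIs, which was highest in the IFT20-KO library at 47.8% and 23.2% in stimulated WT, and the results over whole libraries are therefore followed by values within ranges of UMIs. *Ift20* was at 64.4 CPM in unstimulated WT, 76.0 CPM in stimulated WT and 6.60 CPM in IFT20-KO cells, as the labels imply. The T cell markers *Cd3d*, *Cd3e*, *Cd4* and *Trac* summed to between 2193 and 2493 CPM, against at most 4.12 CPM for 4 myeloid markers, 0.835 CPM for *Cd79a* and 2.48 CPM for *Cd79b* of B cells, with the platelet markers *Pf4* and *Ppbp* at 0 in every library. The state of the cells moved with the groups. Summed levels were 3830, 982 and 1129 CPM for 6 markers of naïve T cells and 185, 1176 and 1096 CPM for 6 of activated T cells. For 3 markers of cycling cells they were 58.6 CPM in stimulated WT and 91.8 CPM in IFT20-KO cells, with less before stimulation. Of the CD8 genes, *Cd8b1* was at 28.6, 9.04 and 11.2 CPM and *Cd8a* at 0.162, 0.120 and 0.291 CPM. Of 3 regulatory T cell markers, which summed to 42.3, 30.8 and 46.2 CPM, *Foxp3* was at 19.8, 3.12 and 4.69 CPM and *Ikzf2* at 13.9, 1.29 and 2.26 CPM, while *Ctla4*, which activated T cells also carry, was at 8.46, 26.4 and 39.2 CPM. The part of these markers in the transporter results was not tested.

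The members lie on separate chromosomes except *Slc38a1* (chr15:96571418-96642913) and *Slc38a2* (chr15:96687392-96699730), neighbours on the minus strand of GRCm38. *Slc2a1* spans chr4:119108711-119137983, *Slc2a3* chr6:122727809-122801640, *Slc16a1* chr3:104638668-104658462 and *Slc16a3* chr11:120948480-120960868. *Slc7a5* spans chr8:121881150-121907694, *Slc3a2* chr19:8706882-8723369, *Slc7a1* chr5:148327410-148399904 and *Slc1a5* chr7:16781340-16798274. Genes of the feature tables overlap *Slc2a1* (Gm12868 and Gm12867) and *Slc7a5* (Gm20388) on the opposite strand, and the sources used here do not state how the counting treated strand.

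The sequences just before the start sites of the lactate carriers are shown because *Slc16a3* had the highest stimulation ratio of the 10 genes and *Slc16a1* holds a site that MYC and related factors are known to bind. RefSeq windows of 250 bases before a start (GRCm38.p6) were at hand for 6 members, with 2 starts for *Slc7a1*, giving 7 windows. Both strands were searched for the E-box CACGTG, for the hypoxia response core ACGTG (contained in CACGTG) and for the ATF4 composite site TGATGNAA. Capitals mark the matches, and stretches that overlap annotated exons are left out. The *Slc16a1* stretch is chr3:104638414-104638663 and the *Slc16a3* stretch is chr11:120948817-120949052, both on the plus strand and written 5′ to 3′. The *Slc16a3* stretch lies within the annotated span of the gene, which begins at 120948480, so the start used is not its first annotated one.
Slc16a1: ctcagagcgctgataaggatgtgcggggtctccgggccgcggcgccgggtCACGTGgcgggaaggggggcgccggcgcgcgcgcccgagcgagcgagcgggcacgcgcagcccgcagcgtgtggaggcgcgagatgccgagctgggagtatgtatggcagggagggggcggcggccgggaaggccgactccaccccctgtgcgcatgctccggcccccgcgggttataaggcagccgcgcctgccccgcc
Slc16a3: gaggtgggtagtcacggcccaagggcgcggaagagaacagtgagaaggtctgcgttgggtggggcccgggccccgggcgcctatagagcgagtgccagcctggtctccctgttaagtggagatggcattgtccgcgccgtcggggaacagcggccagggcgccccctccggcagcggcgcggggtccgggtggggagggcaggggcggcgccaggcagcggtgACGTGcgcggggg

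CACGTG was found in 1 of the 7 windows, 200 bases before the *Slc16a1* start, and in 6.02% of all 32851 promoter windows. ACGTG was found in 4 of the 7 windows and in 16.6% of all. It lay 27 and 14 bases before the *Slc16a3* start, the second inside an annotated exon and so not shown. Further matches lay 36 bases before the *Slc2a1* start, reaching into an annotated exon, and 164 bases before the *Slc3a2* start. Of the 250 bases of the *Slc3a2* window, 169 were in annotated exons. TGATGNAA was in none of the 7 windows and in 3.45% of all. The *Slc16a1* window was 76.4% and the *Slc16a3* window 73.6% G and C. These are matches of letters, not measured sites.

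Together the 10 genes held 449 CPM in unstimulated WT, 1117 CPM in stimulated WT and 1193 CPM in IFT20-KO cells. With every cell thinned to 1400 UMIs, leaving out 801, 421 and 0 shallower cells, 44.9% of unstimulated WT, 76.3% of stimulated WT and 77.9% of IFT20-KO cells held a UMI of any member. Without thinning these shares were 83.1%, 97.5% and 96.6%. The 6 amino acid carriers made up most of the total, at 400.2, 957 and 1064 CPM. The lactate pair was lowest before stimulation, at 6.68 CPM, and reached 91.0 CPM in stimulated WT and 68.0 CPM in IFT20-KO cells.

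**Figure D1:**
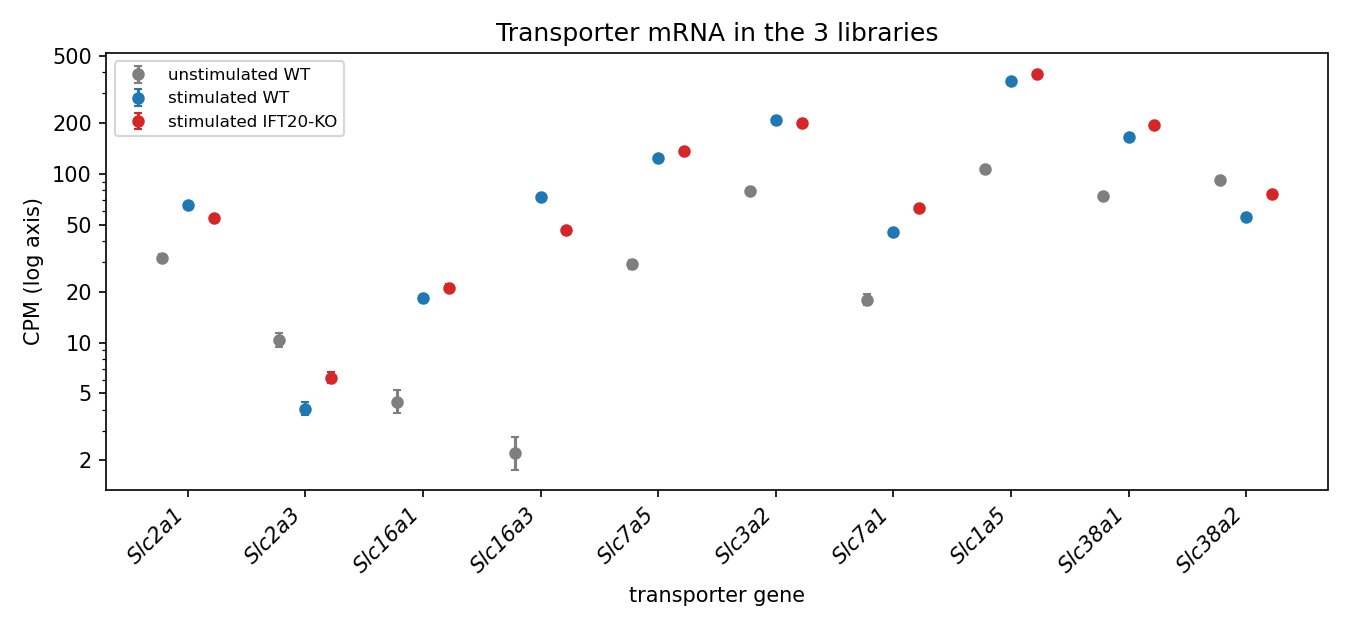
CPM of each transporter gene (log axis) in each of the 3 libraries, with exact 95% Poisson intervals where they are wider than the point. *Slc16a3* runs from 2.21 to 72.6 CPM between the WT libraries, and *Slc2a3* and *Slc38a2* are the members whose stimulated points lie below the unstimulated one.

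Before stimulation *Slc1a5* led at 107 CPM (104 to 111), followed by *Slc38a2* at 92.6 CPM (89.5 to 95.7). *Slc3a2* at 78.9 CPM and *Slc38a1* at 74.2 CPM had overlapping intervals, as did *Slc2a1* at 31.6 CPM and *Slc7a5* at 29.1 CPM. *Slc7a1* at 18.0 CPM, *Slc2a3* at 10.4 CPM, *Slc16a1* at 4.47 CPM and *Slc16a3* at 2.21 CPM followed, each below the interval of the one before. In stimulated WT cells the order was *Slc1a5*, *Slc3a2*, *Slc38a1*, *Slc7a5*, *Slc16a3*, *Slc2a1*, *Slc38a2*, *Slc7a1*, *Slc16a1* and *Slc2a3*, with no overlap between neighbours. In IFT20-KO cells *Slc38a2* and *Slc7a1* stood above *Slc2a1* and *Slc16a3*, and the neighbours *Slc3a2* and *Slc38a1* overlapped.

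The stimulation comparison, stimulated over unstimulated WT, asks which carriers differ in activated cells. The unstimulated cells were in DPBS at 0 h, and no library of cells kept 24 h without the antibodies was analysed here. Time in culture and the antibodies can thus not be told apart, and the ratios named for stimulation cover both. Here 8 of the 10 genes were at least 2-fold higher after stimulation, against 19.3% of the 13297 genes that had 10 or more UMIs in the pair of libraries, and 1, *Slc2a3*, was at least 2-fold lower, against 23% of those genes. The median log2 ratio of the 10 was 1.37, beside −0.089 for all genes. Both lactate carriers and 5 of the 6 amino acid carriers were among the higher ones, and the glucose carriers differed in direction.

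*Slc16a3* was at 2.21 CPM (1.76 to 2.74; 82 UMIs) in unstimulated and 72.6 CPM (71.1 to 74.2) in stimulated WT cells. This is a 32.9-fold ratio, or 5.04 (4.73 to 5.37) on the log2 scale, above 99.3% of all genes in rank. In thinned cells the share with a UMI was 0.387% before and 9.71% after stimulation, and 1 stimulated WT cell held 21 UMIs. *Slc16a1*, the other lactate carrier, was at 4.47 CPM (3.82 to 5.20) before and 18.4 CPM (17.6 to 19.2) after, giving a log2 ratio of 2.04 (1.81 to 2.28). In captured molecules, *Slc16a3* was thus below *Slc16a1* in unstimulated cells and above it in both stimulated libraries.

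*Slc7a5* and *Slc3a2*, which encode the chains of 1 exchanger, differed in size of ratio. *Slc7a5* was at 29.1 CPM (27.4 to 30.9) before and 125 CPM (123 to 127) after stimulation, giving a log2 ratio of 2.10 (2.01 to 2.19). *Slc3a2* was at 78.9 CPM (76.1 to 81.8) before and 209 CPM (206 to 211) after, giving a log2 ratio of 1.40 (1.35 to 1.46). The heavy chain, which pairs with several light chains, gave more captured molecules than the light chain in both libraries.

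*Slc1a5*, the glutamine exchanger gene, had the highest level of the 10 in each library and was at 357 CPM (354 to 361) in stimulated WT cells, 1.73 (1.69 to 1.78) above unstimulated cells on the log2 scale. Its share of thinned cells with a UMI was 13.4% before and 41.5% after. The log2 ratio of *Slc7a1* was 1.34 (1.22 to 1.46), from 18.0 to 45.4 CPM, and that of *Slc38a1* was 1.16 (1.10 to 1.22), from 74.2 to 165 CPM. *Slc2a1* had 31.6 CPM (29.8 to 33.5) before and 65.1 CPM (63.7 to 66.6) after, 2.06-fold more, which lay just past the 2-fold limit and was under it in cells of 4000 to under 8000 UMIs, at 0.57 on the log2 scale.

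Summed over whole libraries, stimulated cells had less *Slc2a3* and *Slc38a2* per UMI. *Slc2a3* was at 10.4 CPM (9.36 to 11.5) before and 4.06 CPM (3.70 to 4.44) after, giving a log2 ratio of −1.35 (−1.55 to −1.15). *Slc38a2* was at 92.6 CPM before and 55.3 CPM (54.0 to 56.7) after, giving a log2 ratio of −0.74 (−0.80 to −0.68). Per cell and without scaling, *Slc2a3* stood at 0.0479 UMIs before and 0.0480 after, and *Slc38a2* at 0.428 and 0.654. Thinning to 1400 UMIs gives every thinned cell the same weight, but it leaves out 801 unstimulated and 421 stimulated WT cells with fewer UMIs. The log2 ratio was then −0.27 for *Slc2a3*, no longer 2-fold, and turned to 0.24 for *Slc38a2*. As mean of per-cell fractions, which gives all kept cells the same weight, the ratios were −0.93 and −0.062. The part of the left-out cells in the thinned values was not tested. A UMI of *Slc38a2* was in 12.2% of thinned cells before and 12.8% after.

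The second comparison, IFT20-KO over WT cells after the same 24 h of stimulation, asks whether the carriers differ without *Ift20*. It shares the stimulated WT library with the first. *Slc2a3*, *Slc7a1* and *Slc38a2* were at least 25% higher, which is 3 of 10 against 30.1% of 13504 genes, a share near the background. *Slc16a3* was at least 20% lower (the same fold), which is 1 of 10 against 6.3% of those genes. With log2 ratios taken from the median of all genes the counts were 2 higher and 2 lower. In UMIs per cell, which keep the difference in depth, they were 0 higher and 7 lower. Shares over all genes are not given here for these settings, so their counts are not read as results about the members. In CPM the median log2 ratio was 0.17, beside 0.14 for all genes and 0.073 for those with at least 10 CPM in either library.

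*Slc16a3* was at 72.6 CPM (71.1 to 74.2) in WT and 46.8 CPM (45.5 to 48.1) in IFT20-KO cells, giving a log2 ratio of −0.64 (−0.69 to −0.58). Of all genes, 3.09% ranked lower. The share of thinned cells with a UMI was 9.71% (9.12% to 10.3%) in WT and 6.08% (5.69% to 6.49%) in IFT20-KO cells. *Slc2a1* was at 65.1 CPM in WT and 54.8 CPM (53.4 to 56.2) in IFT20-KO cells, giving a log2 ratio of −0.25 (−0.30 to −0.20).

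Among the other members, *Slc2a3* had 4.06 CPM in WT and 6.20 CPM (5.74 to 6.69) in IFT20-KO cells, 0.61 (0.44 to 0.78) higher on the log2 scale. *Slc7a1* had 45.4 and 62.9 CPM (61.4 to 64.4), 0.47 (0.42 to 0.52) higher, and *Slc38a2* 55.3 and 75.5 CPM (73.9 to 77.2), 0.45 (0.40 to 0.50) higher. In UMIs per cell, which keep the difference in depth, the log2 ratios of all 10 members were below 0, with these 3 at −0.017, −0.16 and −0.18. The share of all genes below 0 in UMIs per cell is not given here. The log2 ratios of *Slc38a1* at 0.24, *Slc16a1* at 0.20, *Slc1a5* at 0.14 and *Slc7a5* at 0.14 lay nearer to the median of all genes, and in UMIs per cell these 4 turned to −0.39, −0.42, −0.49 and −0.49. The ratio of *Slc3a2* was −0.059 (−0.085 to −0.032), from 209 CPM to 200.3 CPM (198 to 203).

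**Figure D2:**
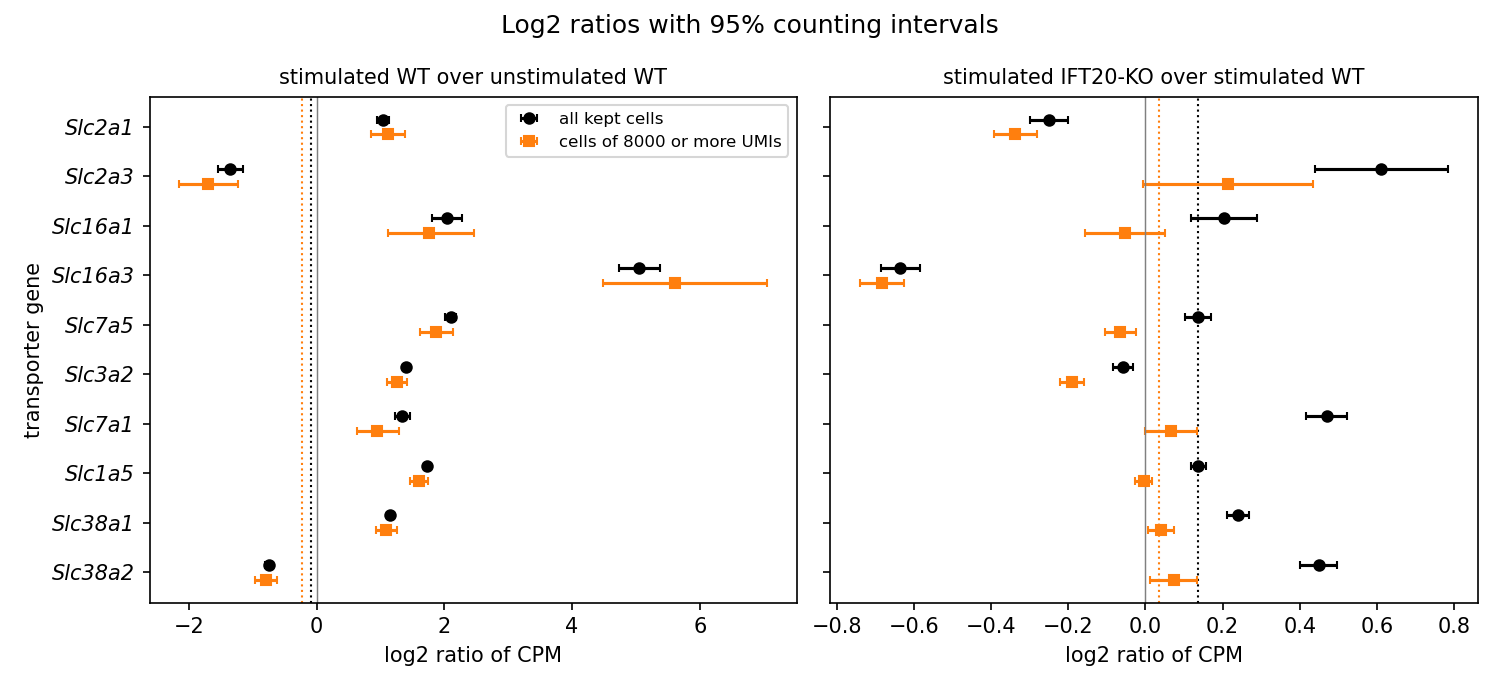
Log2 ratios of CPM for stimulated over unstimulated WT cells (left) and IFT20-KO over WT stimulated cells (right), over all kept cells (circles) and over cells of 8000 or more UMIs (squares), with exact 95% counting intervals and dotted lines at the median of all genes. On the right, *Slc2a3*, *Slc7a1* and *Slc38a2* move from 0.61, 0.47 and 0.45 to 0.21, 0.066 and 0.073, and *Slc16a3* from −0.64 to −0.68.

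The levels depended on the number of UMIs in a cell, and the libraries differed in that number. Cells under 4000 UMIs were 33.1% of unstimulated WT, 23.2% of stimulated WT and 47.8% of IFT20-KO cells. In the stimulated libraries such cells held 3.75% of the UMIs but 11.4% of the transporter UMIs in WT, and 15.5% and 30.6% in IFT20-KO cells. Summed over the 10 genes, stimulated WT cells under 4000 UMIs were at 3392 CPM and those of 8000 or more at 1034 CPM. The same sums were 2359 and 972 CPM in IFT20-KO cells and 557 and 437 CPM in unstimulated cells.

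Mitochondrial counts moved with this. Their median was 10.7% in stimulated WT cells of 2000 to under 4000 UMIs and 1.30% in those of 8000 to under 16000. In IFT20-KO cells it was 5.83% and 1.06%, and in unstimulated WT cells 2.29% and 2.24%, with 9.97% in unstimulated cells under 2000 UMIs. The part of such cells in the comparisons over whole libraries was not tested beyond the ranges given here.

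Within the stimulated WT library, cells of 2000 to under 4000 UMIs were set beside those of 8000 to under 16000. All 10 members were at least 2-fold higher in the cells with fewer UMIs, against 46.1% of 11895 genes. The members' median log2 ratio was 2.04, beside 0.85 for all genes. In the IFT20-KO library 8 of 10 were, against 39% of 12386 genes, with medians of 1.45 and 0.68. In the unstimulated library 0 of 10 were, against 2.09% of 10265 genes, with medians of 0.027 and 0.085. Unstimulated cells under 2000 UMIs, with median mitochondrial counts of 9.97%, are outside these ranges. There every member was higher than from 8000 to under 16000 UMIs. *Slc38a2* was at 280 against 78.0 CPM, *Slc7a1* at 70.8 against 19.8 CPM and *Slc3a2* at 107 against 83.2 CPM. The intervals of *Slc2a1*, *Slc3a2* and both lactate carriers overlapped, and the share over all genes is not given here.

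Within the stimulated WT library the gap was widest for the arginine carrier and SNAT2. *Slc7a1* was at 296 CPM in the lower and 36.1 CPM in the higher range of UMIs, giving a log2 ratio of 3.04 (2.91 to 3.16). *Slc38a2* was at 358 and 44.5 CPM, giving a log2 ratio of 3.01 (2.89 to 3.12). *Slc16a3* differed least, at 161 and 67.3 CPM, giving a log2 ratio of 1.26 (1.10 to 1.41). *Slc7a5* stood between at 465 and 116 CPM. In IFT20-KO cells the order of the extremes was like this, with 2.38 for *Slc7a1*, 2.37 for *Slc38a2* and 0.60 for *Slc16a3*.

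**Figure D3:**
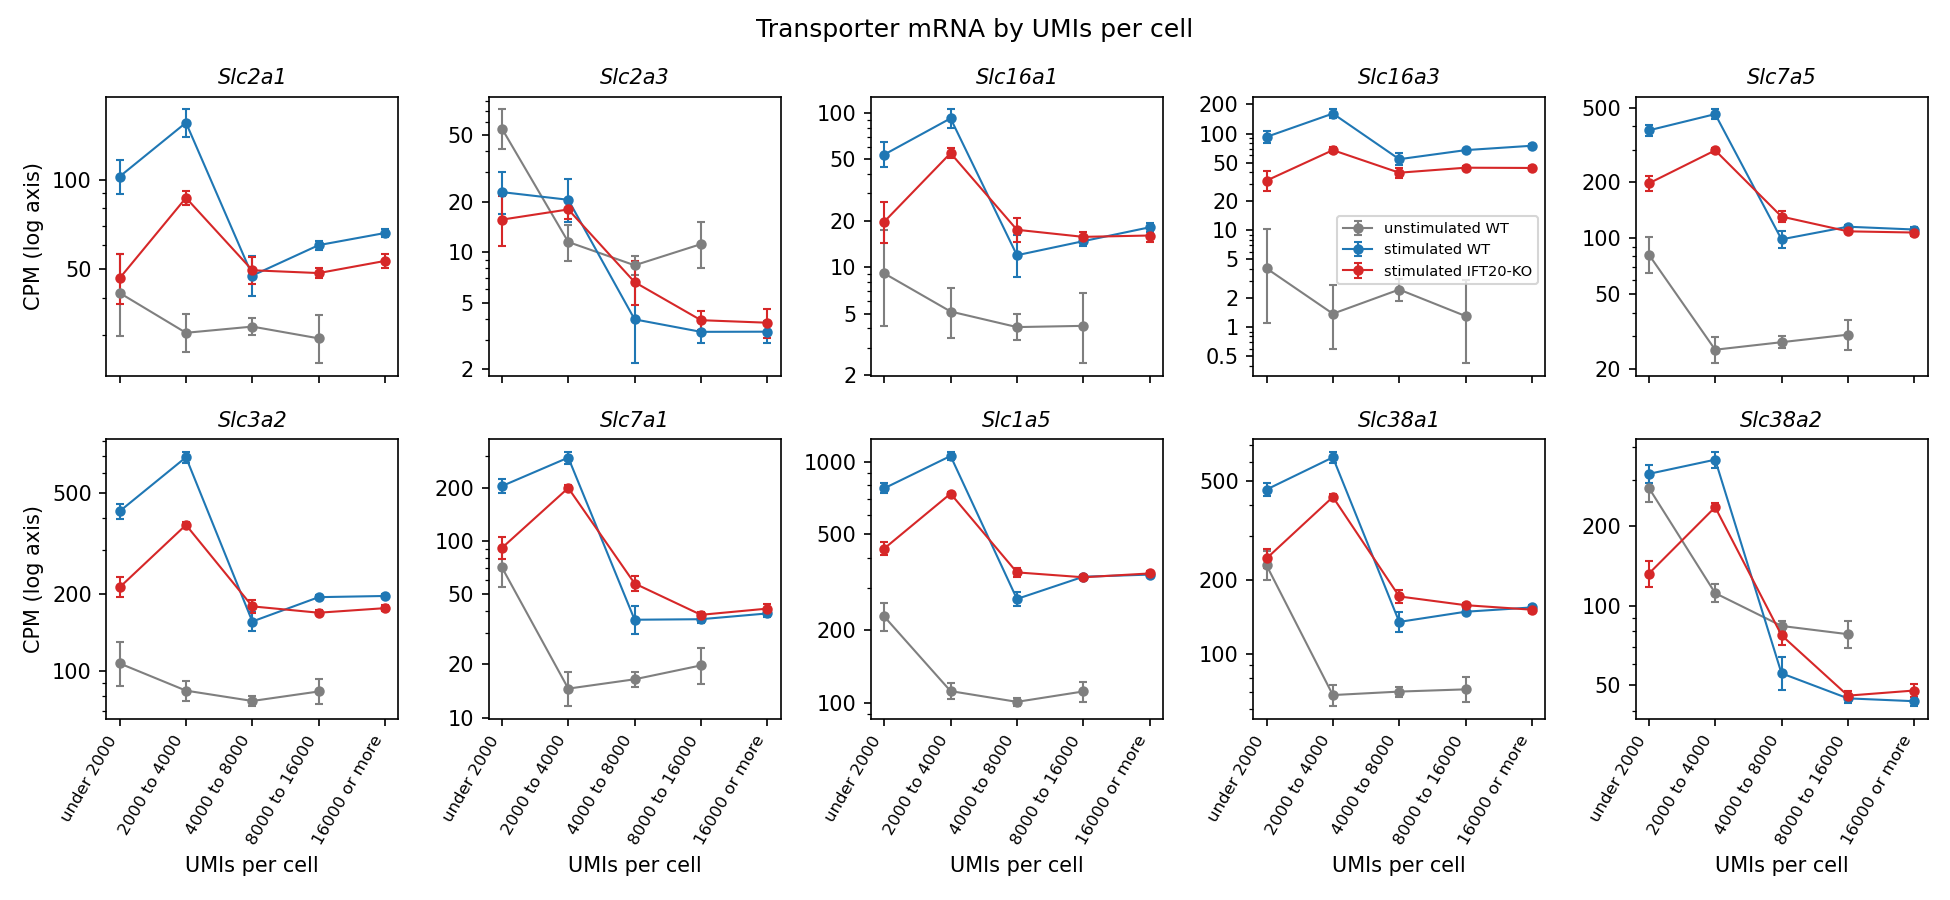
CPM of each transporter (log axis) by range of UMIs per cell in each of the 3 libraries, with exact 95% Poisson intervals. Points from fewer than 20 cells are not drawn. In both stimulated libraries the level of each member is highest in a range under 4000 UMIs. From 4000 UMIs upward it is lower, for example at 116 and 109 CPM for *Slc7a5* from 8000 to under 16000 UMIs. In stimulated WT some members then rise again, such as *Slc16a3* at 54.3, 67.3 and 74.8 CPM in the ranges from 4000 UMIs upward.

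Compared range by range, the IFT20-KO ratios turned direction. Under 2000 and from 2000 to under 4000 UMIs, all 10 members were lower in IFT20-KO than in WT cells, by between −0.55 and −1.50 and between −0.19 and −1.26 on the log2 scale, and the interval of *Slc2a3* spanned 0 in both ranges. Of all genes, 60.9% of 10078 and 52.1% of 11421 were below 0 in these ranges, with medians of −0.20 and −0.024, beside −1.07 and −0.62 for the members. The members at least 20% lower were 10 under 2000 UMIs, against 43.1% of genes, and 9 in the next range, against 24.1%. Neither range held like cells in the stimulated libraries. The lowest deposited barcode had 709 UMIs in WT and 1493 in IFT20-KO, and median mitochondrial counts under 2000 UMIs were 10.0% and 4.75%. From 2000 to under 4000 UMIs they were 10.7% in 885 WT cells and 5.83% in 5373 IFT20-KO cells. From 4000 to under 8000 UMIs, where WT had 546 and IFT20-KO 1119 cells, 9 ratios were above 0, with the intervals of *Slc2a1* and *Slc2a3* spanning 0, and 7 were past 25%, against 35.3% of 10463 genes. *Slc16a3* was lower there, at −0.46 (−0.74 to −0.19), 1 gene past 20% against 8.21%. From 8000 to under 16000 UMIs, with 4466 and 4805 cells, *Slc16a3* was at −0.60 (−0.68 to −0.53), *Slc2a1* at −0.31 (−0.39 to −0.24) and *Slc3a2* at −0.20 (−0.24 to −0.16), and the other ratios were between −0.082 and 0.23.

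Over all cells of 8000 or more UMIs, a range chosen after these values had been seen, 0 of 10 members were at least 25% higher in IFT20-KO cells, against 13.4% of 13145 genes, and 2, *Slc16a3* and *Slc2a1*, were at least 20% lower, against 8.06%. The median of the members was −0.029, beside 0.034 for all genes. *Slc16a3* was at 71.0 CPM in WT and 44.2 CPM in IFT20-KO cells, giving a log2 ratio of −0.68 (−0.74 to −0.63). *Slc2a1* was at 63.1 and 49.9 CPM, giving a log2 ratio of −0.34 (−0.39 to −0.28). *Slc1a5*, the most abundant, was at 338 and 336 CPM, with an interval of the log2 ratio from −0.027 to 0.018.

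For *Slc7a1* the log2 ratio in these cells was 0.066 (−0.00064 to 0.13), for *Slc38a2* 0.073 (0.012 to 0.13) and for *Slc2a3* 0.21 (−0.0072 to 0.43). The excess of at least 25% that these 3 genes had over whole libraries was not seen in cells of 8000 or more UMIs. Without cells under 4000 UMIs, also chosen afterwards, 0 members were at least 25% higher, against 15.9% of 13201 genes, and *Slc16a3* and *Slc2a1* were at least 20% lower, against 7.63%. *Slc16a3* was lower in IFT20-KO cells in each of the 5 ranges.

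The stimulation ratios in cells of 8000 or more UMIs, of which the unstimulated library had 396, were 7 of 10 at least 2-fold higher, against 14.5% of 12654 genes, and 1 lower, against 27.2%. *Slc7a1* lay just under the limit at 0.95 (0.63 to 1.29). *Slc16a3* was at 5.61 (4.49 to 7.06), from 6 UMIs in the unstimulated cells, and *Slc2a3* at −1.70 (−2.15 to −1.22). Without cells under 4000 UMIs 7 were higher, against 19.4% of 13098 genes, and 1 lower, against 23.3%, and *Slc2a1* lay just under the limit at 0.99. From 4000 to under 8000 UMIs 6 were higher, against 13% of 11415 genes, and 1 lower, against 15.9%, with *Slc2a1* at 0.57 (0.32 to 0.81) and *Slc38a1* at 0.94 (0.79 to 1.09) under the limit. From 2000 to under 4000 UMIs every member was higher in stimulated WT cells, also *Slc2a3* at 0.84 (0.26 to 1.40) and *Slc38a2* at 1.68 (1.53 to 1.83). Median mitochondrial counts there were 10.7% in stimulated and 2.29% in unstimulated WT cells. Under 2000 UMIs *Slc2a3* was lower, at −1.26 (−1.85 to −0.67), and *Slc38a2* was at 0.18 (−0.028 to 0.38). Shares over all genes are not given here for these low ranges.

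Cells were then split by a UMI of *Il2ra*, the high-affinity IL-2 receptor chain that activated and regulatory T cells carry, within the range of 8000 to under 16000 UMIs. In stimulated WT, 3374 cells with *Il2ra* had a median of 12611 UMIs and 1092 cells without it 11747 UMIs. *Slc7a1* was at 39.3 CPM with and 25.4 CPM without *Il2ra*, giving a log2 ratio of 0.63 (0.46 to 0.81), and in IFT20-KO cells the ratio was 0.54 (0.38 to 0.71). *Slc7a5* differed by 0.33 (0.24 to 0.42) and 0.28 (0.19 to 0.37), and *Slc3a2* by 0.24 in both. *Slc16a3* did not stand apart, at 67.6 CPM with and 66.4 CPM without *Il2ra* in WT, and 44.5 and 43.7 CPM in IFT20-KO cells.

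In unstimulated cells of 4000 to under 8000 UMIs, *Slc2a3* was at 24.8 CPM in 156 cells with *Il2ra* and 7.81 CPM in 4822 without, giving a log2 ratio of 1.67 (0.95 to 2.32). A UMI of *Foxp3*, the factor that defines regulatory T cells, was in 47.4% of the former and 2.28% of the latter. From 8000 to under 16000 UMIs the *Slc2a3* ratio was 2.13 (0.99 to 3.15), from 27 and 355 cells.

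*Il7r* encodes the IL-7 receptor of resting T cells, and few stimulated cells held its UMI. Of the stimulated WT cells of 8000 to under 16000 UMIs, 177 did, and they had 34.9 CPM of *Slc16a3* against 68.7 CPM in the 4289 without, giving a log2 ratio of −0.97 (−1.32 to −0.65). *Slc1a5* was lower there too, at −0.49 (−0.61 to −0.36). In IFT20-KO cells the ratios were −0.15 (−0.51 to 0.18) and −0.092 (−0.22 to 0.029), and the difference between the libraries was not tested.

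*Mki67*, a gene of proliferating cells, gave a split that changed with the range. In IFT20-KO cells of 4000 to under 8000 UMIs, *Slc7a1* was at 126 CPM in 89 cells with *Mki67* and 52.2 CPM in 1030 without, giving a log2 ratio of 1.27 (0.85 to 1.67). The other members were above 0 there too, from 0.25 for *Slc2a1* to 1.12 for *Slc16a1*, with the intervals of *Slc2a1* and *Slc2a3* spanning 0. From 8000 to under 16000 UMIs, in the same library, *Slc7a1* was at 44.3 CPM in 309 and 37.7 CPM in 4496 cells, giving a log2 ratio of 0.23 (−0.0059 to 0.46). The other ratios in this range lay between −0.26 and 0.12, with intervals that spanned 0. The cells with *Mki67* in the first range had a median of 4807 UMIs and those without 6624. The share of all genes above 0 was not computed for this split or for the other marker splits. The shared direction of the members in the first range is thus not read as particular to them. In stimulated WT cells of the higher range, 105 with and 4361 without *Mki67*, the ratios pointed the other way for *Slc7a5* at −0.34 (−0.60 to −0.083), *Slc3a2* at −0.29 (−0.49 to −0.10) and *Slc1a5* at −0.19 (−0.34 to −0.049), and *Slc7a1* was at −0.053 (−0.50 to 0.36).

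**Figure D4:**
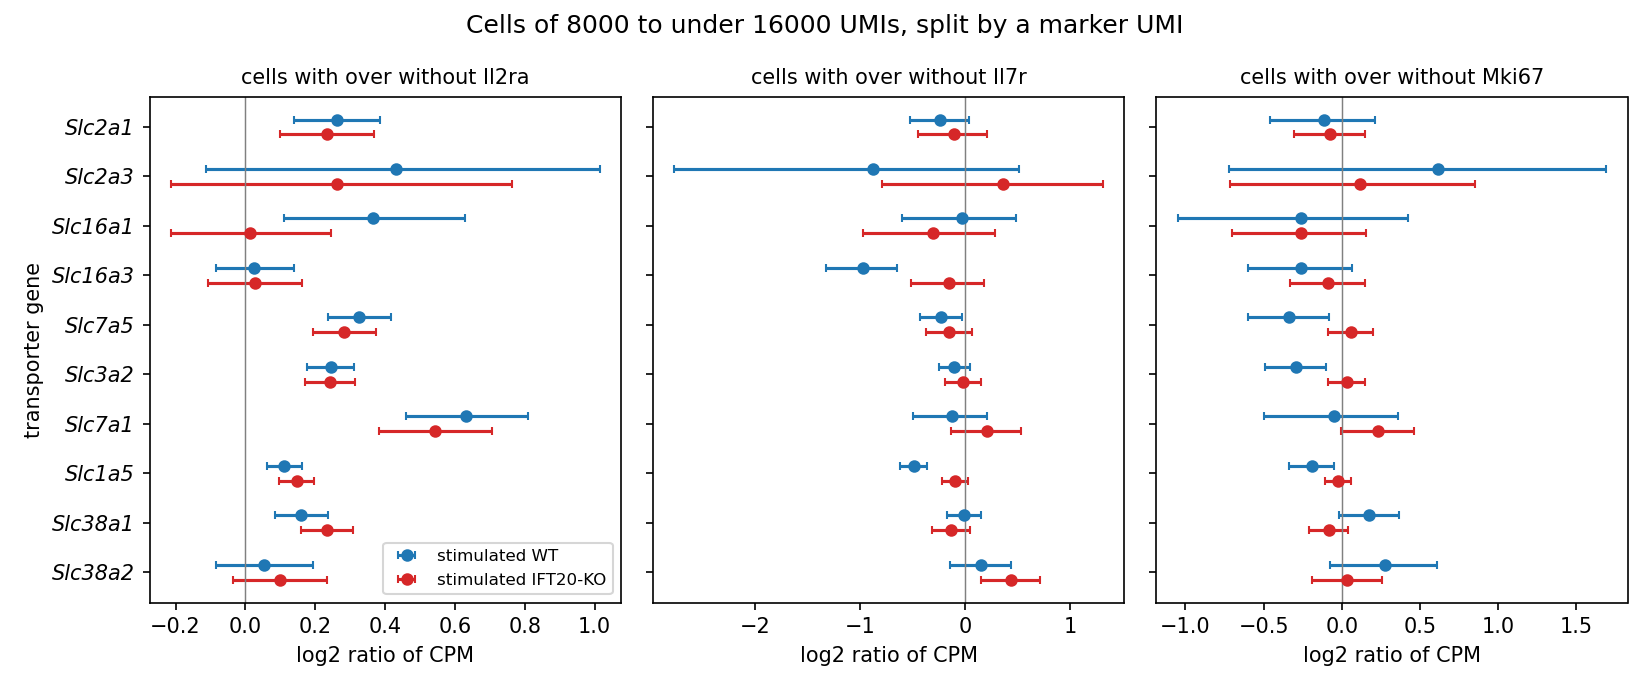
Log2 ratio of CPM between cells with and without a UMI of *Il2ra*, *Il7r* or *Mki67*, among stimulated WT and IFT20-KO cells of 8000 to under 16000 UMIs, with exact 95% counting intervals. *Slc7a1* stands highest in the *Il2ra* panel, at 0.63 and 0.54, and *Slc16a3* lowest in the *Il7r* panel for WT, at −0.97.

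The members also differed in the variance over the mean of their UMIs per cell. With cells of 8000 to under 16000 UMIs thinned to 8000, the variance over the mean of *Slc16a3* was 1.87 in stimulated WT and 1.70 in IFT20-KO cells. A value of 1 is that of Poisson counts, which fall on cells at random. A UMI of *Slc16a3* was in 30.8% of WT cells, beside 41.4% for Poisson counts at its mean. The 10% of cells with the most held 55.2% of its UMIs. Both this share and the variance over the mean depend on the mean. For *Slc7a1*, with a variance over the mean of 1.16 in WT, the share was 54.8%. *Slc1a5* had 1.60 and 1.44, *Slc3a2* 1.56 and 1.32, and *Slc7a5* 1.48 and 1.39. *Slc38a1* and *Slc38a2* were nearer to 1, between 1.09 and 1.15 in the stimulated libraries. Means in stimulated WT ran from 2.65 UMIs for *Slc1a5* to 0.361 for *Slc38a2* and 0.281 for *Slc7a1*. These values thus do not rank the members by how evenly cells held them. The order differed in cells of 4000 to under 8000 UMIs thinned to 4000, where *Slc38a1* had 1.59 in WT and 1.64 in IFT20-KO cells, *Slc38a2* 1.35 and 1.49, *Slc16a3* 1.94 and 1.24, and *Slc1a5* 2.17 in both.

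Pairs of members occurred in the same thinned cells somewhat more often than their shares multiply to. In stimulated WT, 38 of 44 pairs with at least 20 expected cells lay above 1, with a median ratio of observed to expected of 1.06, and in IFT20-KO cells 42 of 44 did, also with a median of 1.06. In cells of 4000 to under 8000 UMIs thinned to 4000 it was 21 of 21 pairs in WT, with a median of 1.27, and 32 of 32 in IFT20-KO cells, with a median of 1.34. Pairs of other genes were not computed, so these counts are not read as particular to the transporters. *Slc2a1* and *Slc16a3* met in 616 WT cells where 490 were expected, a ratio of 1.26, and in 422 IFT20-KO cells where 344 were, a ratio of 1.23. *Slc7a5* and *Slc7a1* had 1.26 and 1.16, and the exchanger chains *Slc7a5* and *Slc3a2* 1.12 and 1.10. A gene found in most cells limits how high the ratio can be, so pairs and ranges of UMIs are not ranked by it. In WT cells of 8000 to under 16000 UMIs, *Slc3a2* was in 78.6% of cells with *Slc7a5* and 61.5% without. *Slc16a3* was in 38.7% of those with *Slc2a1* and 26.4% without. *Slc16a1* and *Slc16a3*, both lactate carriers, had 1.01 and 1.02. These ratios describe cells of 1 library each.

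A wider list held 68 other transporter genes, filed by family under hexoses, monocarboxylates and amino acids, of which 13 reached 10 CPM in a WT library. A place in the list does not show what the protein of a given gene carries. Of these, 3 were at least 2-fold higher and 4 at least 2-fold lower after stimulation, against 16.8% and 18.4% of the 7681 genes at that level, with a median log2 ratio of −0.32. *Slc7a3*, a cationic amino acid carrier like *Slc7a1*, had 1 UMI in unstimulated WT and 1466 UMIs, 12.5 CPM, in stimulated WT cells, giving a log2 ratio of 8.86 (6.38 to 14.2). *Slc1a4*, a neutral amino acid carrier related to *Slc1a5*, was at 0.889 and 11.6 CPM, and *Slc16a10*, an aromatic amino acid carrier, at 5.63 and 23.0 CPM.

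On the other side, *Slc16a5*, of the monocarboxylate family, was at 39.5 CPM in unstimulated and 0.214 CPM in stimulated WT cells, giving a log2 ratio of −7.53 (−8.16 to −6.96). *Slc2a9*, a urate and hexose carrier, was at 20.7 and 4.78 CPM, and *Slc43a2*, a carrier of large neutral amino acids, at 31.7 and 7.47 CPM. The monocarboxylate family thus held both the highest ratio of the 10 members and the lowest of the wider list.

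In IFT20-KO over WT cells, 12 of the wider list reached 10 CPM, of which 6 were at least 25% higher and 0 at least 20% lower, against 17.2% and 1.8% of 7095 genes. The highest log2 ratios were 0.65 for *Slc43a3*, 0.59 for *Slc43a2* and 0.45 for *Slc38a9*, and the lowest 0.033 for *Slc37a1*, 0.23 for *Slc6a6* and 0.30 for *Slc1a4*. In cells of 8000 or more UMIs the count of higher ones was 2 of the same 12, beside 13.4% of all genes with 10 or more UMIs there, and the median log2 ratio went from 0.33 to 0.069. *Slc43a3* was at 0.37 (0.22 to 0.52) there.

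Genes known to act with these carriers formed a separate list. *Bsg*, the chaperone that brings MCT1 and MCT4 to the surface, was at 129 CPM in unstimulated WT, 316 CPM in stimulated WT and 306 CPM in IFT20-KO cells. *Emb*, a related chaperone, was at 237, 85.8 and 98.8 CPM. *Txnip*, whose protein promotes the removal of GLUT1 from the surface, was at 418, 26.6 and 35.2 CPM, giving a log2 ratio of −3.97 (−4.03 to −3.92) for stimulation and 0.40 (0.33 to 0.47) for IFT20-KO over WT, which was 0.17 in cells of 8000 or more UMIs. *Arrdc4*, of the same family, was under 1 CPM in all 3 libraries.

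Among transcription factors, *Myc*, which drives many of these carriers in T cells, was at 75.6, 264 and 220 CPM, with log2 ratios of 1.81 (1.75 to 1.86) and −0.26 (−0.29 to −0.24). *Hif1a*, which encodes a factor that induces glucose and lactate carriers, was at 49.0, 219 and 235 CPM. *Atf4*, the factor of the amino acid response, was at 69.3, 201 and 167 CPM, with log2 ratios of 1.53 and −0.27 (−0.30 to −0.24). In cells of 8000 or more UMIs the IFT20-KO ratio was −0.25 for *Myc*, −0.23 for *Atf4* and −0.071 for *Hif1a*.

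The genes most like each member were taken as the 3 nearest of 3435 genes with at least 50 CPM in any library, by distance over the 2 log2 ratios. The closest to *Slc16a3* was *Il12rb1*, an IL-12 receptor chain, at 1.43, 52.6 and 37.7 CPM and a distance of 0.23, followed by *Rgs1* at 0.50 and *Eif4ebp1* at 0.60. For *Slc2a1* the distances were shorter, 0.010 for *Ube2v2* and 0.032 for *Eif4a1*. *Slc7a5* was nearest to *Pou2f2*, *Pck2* and *Hif1a*, and *Slc3a2* to *Hnrnpdl*, *Farsb* and *Vdac1*. *Slc7a1* had *Ppat*, *Parp1* and *Dnmt1*, and *Slc2a3* had *Zfp36l2*, *Aff4* and *Il27ra*. With 3 libraries, 2 ratios that share a library fix each distance.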

How the data were processed

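Per the labels and file headers, the authors made 1 10x Genomics library each, aligned reads to mm10 and counted UMIs with Cell Ranger (3.1.0 in the file headers), and deposited counts of UMIs per gene and called barcode, without normalization. The labels name a 5′ kit and the study's methods a 3′ kit. The lowest UMI count of a deposited barcode was 500 in unstimulated WT, 709 in stimulated WT and 1493 in IFT20-KO. The sources used here do not state what set these minima.

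Everything else was computed from these counts. The filter left out 222, 417 and 12 barcodes and kept 37133949, 116979076 and 106435143 UMIs. Between 114 and 197 barcode sequences were shared by a pair of libraries. Intervals are exact Poisson (CPM), exact binomial (ratios) and Clopper-Pearson (shares). A gene counted as higher or lower past 2-fold for stimulation, and when 25% higher or 20% lower for IFT20-KO over WT, limits that stand in for a test. No doublet caller was run, and the removal of the 6% of cells with the most UMIs was an alternative.

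The 10 genes and the lists were chosen with earlier results of these data known. Named genes were all members, the listed partners, the 3 highest and 3 lowest of the wider list at 10 CPM or more in either library, and the 3 nearest genes of each member, of which some are printed. *Slc1a5* in the *Il7r* split and the genes printed from the splits, the spread and the pairs were picked after their values were seen, as were the ranges of 8000 UMIs and more. Gene positions are from GENCODE M21 (GRCm38), in which 31011 of 31053 identifiers were found. The scripts were tested on simulated data and used Python 3.11.15, numpy 2.4.6, scipy 1.17.1, pandas 2.3.3 and matplotlib 3.10.9. The alternatives were median-ratio scaling, UMIs per cell, the mean of per-cell fractions, all barcodes, more than 1000 genes with under 10% mitochondrial counts, cells of 4000 to under 8000 UMIs, no top 6% of cells, no shared barcodes, and thinning to 1400 UMIs.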

Additional observations from a re-analysis of the deposited data

How the results depend on the processing

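No paired analysis was possible because each group has 1 library and the labels carry no replicate numbers. Depth limits *Slc16a3*, *Slc16a1* and *Slc2a3* most, since the unstimulated library held 82, 166 and 385 of their UMIs. The median log2 ratio of the 10 genes for stimulation, 1.37, was 1.52 with median-ratio scaling, 2.72 in UMIs per cell, 1.78 as mean of per-cell fractions, 1.08 in cells of 4000 to under 8000 UMIs and 1.94 in cells thinned to 1400 UMIs, and, in the ranges chosen after the data had been seen, 1.19 in cells of 8000 or more UMIs and 1.24 without cells under 4000 UMIs. The count at least 2-fold lower, 1, was 0 in UMIs per cell, as mean of per-cell fractions and in thinned cells. Shares over all genes are not given here for these alternatives. *Slc2a3* turned to 0.00078 in UMIs per cell, and *Slc38a2*, below 2-fold throughout, to 0.61 there and 0.24 in thinned cells.

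For IFT20-KO over WT the median, 0.17, was 0.034 with median-ratio scaling, −0.46 in UMIs per cell, 0.26 with the stricter barcode filter, 0.39 in cells of 4000 to under 8000 UMIs, 0.23 without the 6% of cells with the most UMIs, −0.029 in cells of 8000 or more UMIs and −0.011 without cells under 4000 UMIs. The count at least 25% higher, 3, was 0 in UMIs per cell, 7 in cells of 4000 to under 8000 UMIs and 0 in both ranges chosen afterwards. The count at least 20% lower, 1, was 2 with median-ratio scaling and in both of those ranges, and 7 in UMIs per cell. Shares over all genes are not given here for median-ratio scaling or UMIs per cell. In UMIs per cell 7 members turned: *Slc2a3* to −0.017, *Slc7a1* to −0.16, *Slc38a2* to −0.18, *Slc38a1* to −0.39, *Slc16a1* to −0.42, and *Slc1a5* and *Slc7a5* to −0.49. In cells of 4000 to under 8000 UMIs *Slc2a1* turned to 0.060 and *Slc3a2* to 0.20. In cells of 8000 or more UMIs *Slc16a1* turned to −0.054, *Slc7a5* to −0.065 and *Slc1a5* to −0.0049, and without cells under 4000 UMIs *Slc16a1* turned to −0.030 and *Slc7a5* to −0.036. Median-ratio scaling subtracted −0.15 from every log2 ratio for stimulation and 0.14 for IFT20-KO over WT. UMIs per cell carry the libraries' difference in UMIs by construction. For the other shifts the cause was not tested. *Slc16a3* kept its direction and its side of the fold limit in all 11 alternatives of both comparisons.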

Other observations

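The barcodes left out by the filter, 222 of the unstimulated WT, 417 of the stimulated WT and 12 of the IFT20-KO library, had summed levels of the 10 transporters of 1144 CPM (998 to 1306), 2878 CPM (2759 to 3002) and 694 CPM (404 to 1111). In the WT libraries these sums lay above the 449 and 1117 CPM of the kept cells, and the IFT20-KO value rests on 17 UMIs. Cells of the unstimulated library under 2000 UMIs, 925 in number, had 54.6 CPM of *Slc2a3* (41.0 to 71.3), against 8.36 CPM in those of 4000 to under 8000 UMIs, and 280.2 CPM of *Slc38a2*, against 83.8 CPM.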
